A study of Homo sapiens with 15 samples.

Results

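Ribosome footprints of a human HEK293 line that overexpressed ZC3H7A were set against those of a line that overexpressed its paralog ZC3H7B. The rows compared are the 15237 of 55773 gene names that reached 10 or more normalized counts in at least 3 of these 6 libraries, and the 6 libraries are 3 of each line out of 15 samples in 5 groups. HEK293 is a line derived from human embryonic kidney, here in the Flp-In T-REx form, in which a construct sits at a single genomic site and is switched on by doxycycline. The 3 Flag/HA-ZC3H7A libraries carry the label Flag-HA/ZC3H7A-Overexpression, the 3 Flag/HA-ZC3H7B libraries the label Flag-HA/ZC3H7B-Overexpression, and 3 Flag/HA control libraries served as a common background. Doxycycline was given at 1 µg/mL for 24 h to induce the tagged proteins. All 9 were lysed in the same hypotonic buffer, digested with RNase I and made into libraries with the same small RNA kit, and the labels call the 3 replicates independent. The other 6 samples of the series, parental cells and cells depleted of both proteins, were prepared by another protocol and were not used here. Each protein was expressed in a line of its own, so a response to ZC3H7A or ZC3H7B cannot be told apart from any other difference between the lines. A footprint level also combines the amount of an mRNA with its translation, and RNA-seq was not analysed here.

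ZC3H7A and ZC3H7B are RNA-binding proteins with zinc fingers of the CCCH type. Proteins of this class bind RNA through short loops held by a zinc ion, and many of them recruit machinery that represses translation or removes the poly(A) tail. An example is the complex of the cap-binding protein 4EHP, encoded by EIF4E2, with GIGYF1 or GIGYF2. The series title ties both paralogs to codon-dependent control of translation and mRNA stability, so the composition of coding sequences is given beside the levels. The measure used is AT3, the percentage of codons, without start and stop, that end in A or T.

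The coding sequences of the paralogs themselves lie far apart on this measure. The first 120 bases of each are printed because the contrast between the lines is a contrast between these messages, with the third base of a codon in capitals where it is A or T. They are the start of the longest coding sequence of each gene in GENCODE release 29 (GRCh38), read 5′ to 3′ on the coding strand. The labels do not say which sequence the constructs carry.
ZC3H7A: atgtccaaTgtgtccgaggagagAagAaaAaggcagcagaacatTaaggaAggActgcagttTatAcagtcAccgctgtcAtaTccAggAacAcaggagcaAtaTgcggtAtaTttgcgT
ZC3H7B: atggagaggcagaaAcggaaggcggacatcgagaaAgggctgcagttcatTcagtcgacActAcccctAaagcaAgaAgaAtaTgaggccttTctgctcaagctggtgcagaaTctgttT
In these stretches 20 of 40 codons of ZC3H7A and 13 of 40 codons of ZC3H7B end in A or T. Over the whole coding sequence AT3 was 64.2% of 970 codons in ZC3H7A (chromosome 16, 11750586 to 11797267, minus strand) and 19.1% of 976 codons in ZC3H7B (chromosome 22, 41301522 to 41360147, plus strand). The first value falls in the highest quintile of the genes tested and the second in the lowest.

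Both labels held in every library. ZC3H7A footprints stood at 37858, 37598 and 38675 normalized counts in replicates 1 to 3 of the ZC3H7A line and at 4677, 4773 and 4837 in the ZC3H7B line, against 6509, 6526 and 6607 in the Flag/HA control. ZC3H7B footprints stood at 2987, 2664 and 2809 in the ZC3H7A line and at 27538, 27182 and 28936 in the ZC3H7B line, against 2230.5, 2137 and 2089 in the control. The groups do not overlap for either gene. The log2 difference, ZC3H7A line minus ZC3H7B line as in every difference given here, was 3.00 ± 0.0402 (SE) for ZC3H7A (limma adjusted p = 1.4e-24) and -3.31 ± 0.0477 (SE) for ZC3H7B (limma adjusted p = 3.6e-24). Adding 1 before taking logs makes fold changes of weakly read genes look smaller than they are. Reads of construct and chromosomal gene are counted together.

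The lines differed at many genes, mostly by little. Of the 15237 genes tested, 5685 passed the limma test at an adjusted p below 0.05, which is 37.3% of them. With the authors' normalization the calls split evenly, with 2859 genes higher in the ZC3H7A line (18.8%) and 2826 higher in the ZC3H7B line (18.5%). Their median size was 0.35 on the log2 scale, and the median over all genes was -0.0070. At least 2-fold differences were called for 466 genes (3.06%), 245 higher in the ZC3H7A line and 221 higher in the ZC3H7B line. In 6745 genes (44.3%) the 3 libraries of a line all lay above the 3 of the other, 3380 with the ZC3H7A line above and 3365 with the ZC3H7B line above. A further fact about the filter is that 149 genes passed it through a single line, with 10 or more in all 3 libraries of that line and in no library of the other, so these had to differ.

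Depth did not separate the lines. Recovered reads came to 24703005 to 25922138 per library in the ZC3H7A line and 22661812 to 25939425 in the ZC3H7B line. Replicates were distinct libraries, since the chi-square per degree of freedom between replicates of a line was 2.49 to 6.06. The label HEK293 was checked on a list of 16 markers, whose summed level was 42597 to 45172 normalized counts in the ZC3H7A line, 42113 to 46865 in the ZC3H7B line and 40331 to 42670.0 in the control. All 16 had reads in these 6 libraries, and PAX8, a kidney transcription factor, was the marker below the filter, at 4.19 or less. The sums hide differences of single markers. Of the 15 HEK293 markers tested 53.3% were called, against 37.3% of all genes. Of these, 2 were higher in the ZC3H7A line (1 under some alternatives) and 6 in the ZC3H7B line, with a list median of -0.15. Of 11 fibroblast markers 6 stayed below the filter (DCN, LUM, COL1A2, THY1, PDGFRB and FAP), and of 12 blood cell markers 9 did, with HBA2 at 0 throughout. The summed fibroblast markers reached 567 to 657 in the ZC3H7A line and 780.3 to 792 in the ZC3H7B line, and the summed blood markers 265 to 336 and 346 to 460.1. The control sums were higher, at 1741 to 1909 for fibroblast and 616 to 820 for blood markers. The smooth muscle actin gene ACTA2, at 270.5, 334 and 274 in the ZC3H7A line and 537, 526 and 551 in the ZC3H7B line, and the haemoglobin gene HBB, at 264, 243 and 184 and 315, 404 and 304, were called higher in the ZC3H7B line. PDGFRA was called higher in the ZC3H7A line, as was 1 of the 3 blood cell markers tested, at a log2 difference of 1.65. The part of other cells in these values was not tested.

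Some genes were read in a single line almost exclusively. Taking a mean of 20 or more normalized counts in a line and at most 3 reads over the 3 libraries of the other, 20 genes met this in the ZC3H7A line and 7 in the ZC3H7B line. The control libraries sorted these differently. Of the 20, 10 also had at most 3 reads in the control, 9 lay between, and ZNF595, a zinc finger gene, had a control mean of 20 or more. Of the 7, none had at most 3 control reads and 4 had a control mean of 20 or more. HDX, a homeobox gene on the X chromosome, had the largest difference of all genes. Its values were 268, 231 and 331 in the ZC3H7A line, 0, 0 and 0 in the ZC3H7B line and 0, 2.39 and 0 in the control. With 0 reads in the ZC3H7B line it was at least 192-fold higher in the ZC3H7A line, counting a floor of 3 reads over the group.

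**Figure D1:**
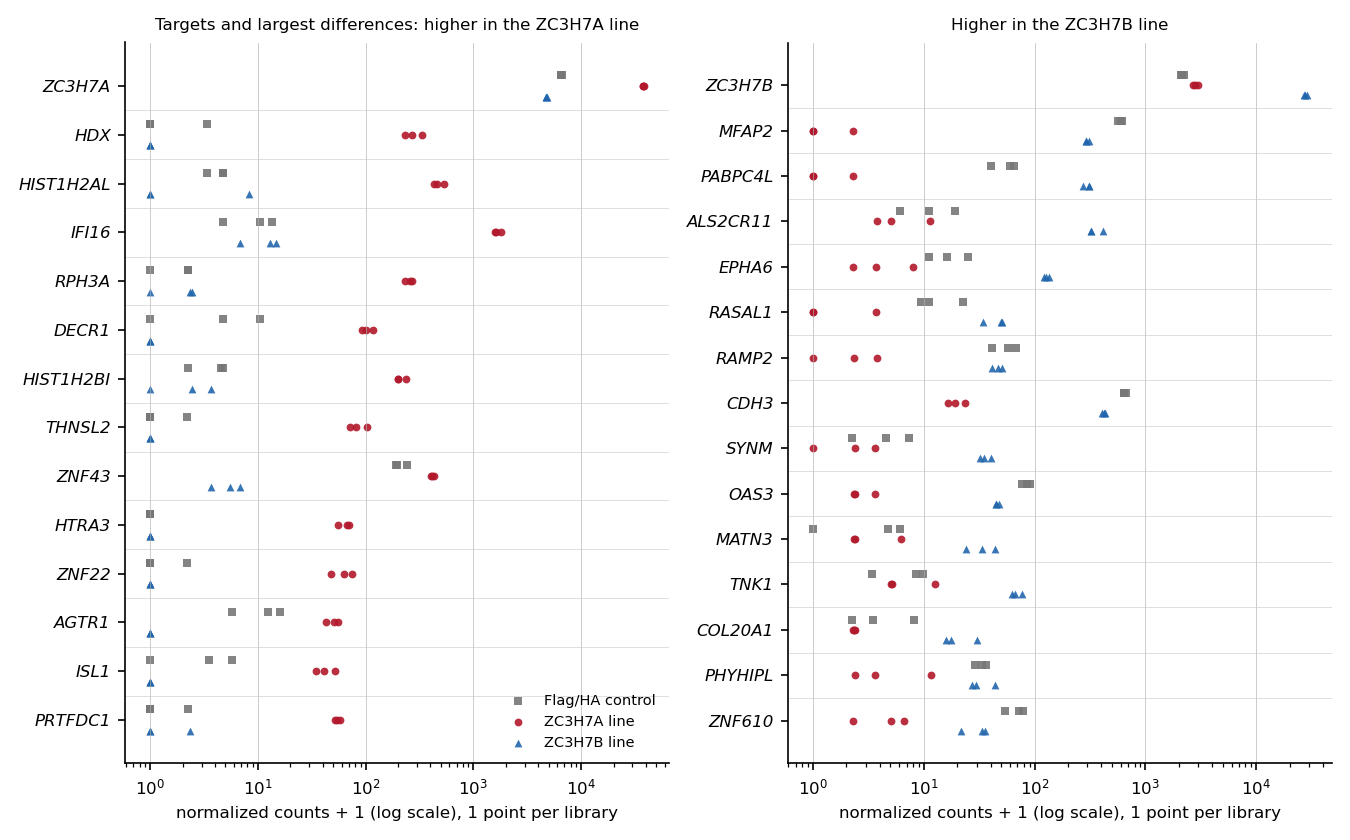
Normalized counts plus 1 on a log axis for the 2 targeted genes and the named genes with the largest differences, 1 point per library, with grey squares for the Flag/HA control, red circles for the ZC3H7A line and blue triangles for the ZC3H7B line. Unnamed-locus transcripts of the same set and 1 gene not reported here are left out, and the red and blue points of a gene do not overlap in any row, which the rule for naming the genes required.

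Other regulators were read in the ZC3H7A line and near silent in the other groups. IFI16, a sensor of foreign DNA, was read at 1632, 1787 and 1591 in the ZC3H7A line against 13.7, 12.1 and 5.87 in the ZC3H7B line and 3.80, 9.57 and 12.6 in the control (log2 difference 7.25 ± 0.313). ISL1, a LIM homeobox factor of motor neuron and heart development, stood at 50.9, 40.5 and 33.9 against 0 in all 3 ZC3H7B libraries, at least 29.03-fold higher. Non-overlap of the lines was part of the rule by which these genes were named. RPH3A, which encodes the synaptic vesicle protein rabphilin, was read at 259.8, 229 and 267 against 0, 1.34 and 1.47. With 2 reads in the ZC3H7B line, the 95% counting interval of its ratio ran from 72.5 to 2179.

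DECR1, a mitochondrial enzyme of unsaturated fatty acid oxidation, stood at 92.4, 116 and 99.1 in the ZC3H7A line and at 0 in the ZC3H7B line, at least 71.2-fold higher. HTRA3, a secreted serine protease, stood at 54.9, 65.7 and 69.1 and was at 0 in all ZC3H7B and control libraries, at least 43.9-fold higher. AGTR1, the angiotensin II receptor, stood at 41.5, 54.5 and 49.6 against 0 in the ZC3H7B line and 11.4, 4.79 and 15.1 in the control, at least 33.7-fold higher. THNSL2, ZNF22 and the transcript RP11-180C1.1 were likewise at 0 in the ZC3H7B line and at least 58.7-, 42.0- and 26.7-fold higher in the ZC3H7A line. PRTFDC1 had 1 read in the ZC3H7B line. Each of these 4 genes had a mean of 20 or more in the ZC3H7A line and at most 3 reads in the control.

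Replication-dependent histone genes and a zinc finger gene complete the list of the largest differences in this direction. HIST1H2AL stood at 461, 528 and 428 against 0, 0 and 7.33, and HIST1H2BI at 238, 197 and 201 against 0, 2.68 and 1.47. Histone genes of a class are near-identical copies, so how the authors' counting split reads between them makes single values uncertain. ZNF43, a KRAB zinc finger gene of chromosome 19, differed from the others in its control level. It stood at 402, 433 and 408 in the ZC3H7A line, 4.56, 2.68 and 5.87 in the ZC3H7B line and 194, 191 and 243 in the control, so the low group was the ZC3H7B line.

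Some of the largest differences in the other direction had a different relation to the control, and others did not. MFAP2, a component of elastic microfibrils, was read at 312, 291 and 290.4 in the ZC3H7B line and 620.3, 568 and 601 in the control, and at 0, 0 and 1.30 in the ZC3H7A line. With 1 read there, the 95% counting interval of the ratio ran from 119 to 26226. CDH3, which encodes the adhesion molecule P-cadherin, stood at 404, 433 and 419 in the ZC3H7B line, 22.8, 18.2 and 15.7 in the ZC3H7A line and 662, 638 and 645 in the control (log2 difference -4.42 ± 0.135, limma adjusted p = 2e-17). OAS3, an antiviral synthetase induced by interferon, stood at 44.1, 44.3 and 46.9 against 1.34, 1.40 and 2.61, and the control at 83.5, 75.4 and 90.5. RAMP2, a partner of the calcitonin-like receptor, stood at 45.6, 40.2 and 49.9 against 1.34, 2.79 and 0, and the control at 57.0, 67.0 and 40.2. In these 4 genes the ZC3H7A line was the low group and the control was read at levels of the same order as the ZC3H7B line. PHYHIPL, RP11-255H23.2 and ZNF610 showed the same arrangement, with ZC3H7A means below those of the control and the ZC3H7B line.

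PABPC4L, a relative of the poly(A)-binding proteins, was highest in the ZC3H7B line. Its values were 310.2, 306 and 269.9 there, 0, 0 and 1.30 in the ZC3H7A line and 59.5, 39.5 and 64.1 in the control. EPHA6, an ephrin receptor, followed the same order, at 120.1, 133 and 125, 2.68, 6.99 and 1.30 and 15.2, 23.9 and 10.1, as did RASAL1, which switches off Ras, at 50.2, 33.5 and 48.4, 2.68, 0 and 0 and 21.5, 8.37 and 10.1. ALS2CR11 was read at 321, 321 and 409 in the ZC3H7B line against 4.02, 2.79 and 10.4 in the ZC3H7A line and 5.06, 17.9 and 10.1 in the control (log2 difference -5.86 ± 0.398). Both other groups were low for this gene. SYNM, which encodes the intermediate filament protein synemin, MATN3 of cartilage matrix, the kinase TNK1 and the collagen COL20A1 were also low in both other groups. Their ZC3H7B levels stood between 14.8 for COL20A1 and 76.0 for TNK1.

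Among abundant genes, with a mean of 1000 or more in both lines, the largest differences were smaller. AMOT, a scaffold of the Hippo pathway that binds YAP, stood at 16178, 15917 and 15142 in the ZC3H7A line and 4054, 3844 and 3828 in the ZC3H7B line, against 663, 774 and 688 in the control. Both lines exceeded the control, and the ZC3H7A line exceeded the ZC3H7B line 4.03-fold (log2 difference 2.01 ± 0.0531, limma adjusted p = 1.29e-18). The histone gene HIST1H2AE had the same order, at 7524, 6559.7 and 6606, 2305, 2289.7 and 1819 and 653, 618 and 654. CNIH1, a cargo receptor that loads growth factors into vesicles leaving the endoplasmic reticulum, stood at 4732, 5232 and 4802 against 1703, 1745 and 1715, and the control at 7032, 6727 and 6844 (log2 difference 1.51 ± 0.0465). LMAN1, the mannose-binding cargo receptor for clotting factors, stood at 13244, 13417 and 13615 against 5662, 5886 and 5464, with 17199, 17020.0 and 17108 in the control (log2 difference 1.24 ± 0.0418). For CNIH1 and LMAN1 the control was the highest group and the ZC3H7B line the lowest. The same order held for the metalloprotease ADAM9 (2.62-fold between the lines) and for HSD17B12 of fatty acid elongation (2.46-fold). The neurotransmitter transporter family member SLC6A15 and CXorf57 were highest in the ZC3H7A line, 2.58-fold and 3.27-fold above the ZC3H7B line.

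The abundant genes higher in the ZC3H7B line were MED10, RPA2, MIDN, FAM111B, NSUN2, NDUFS6, RPL22 and ATPIF1. MED10, a subunit of the Mediator of transcription, stood at 3865, 4079 and 3519 in the ZC3H7B line against 1110.0, 1225 and 1253 in the ZC3H7A line (log2 difference -1.67 ± 0.0588, limma adjusted p = 1.94e-16). RPA2, a subunit of the protein that coats single-stranded DNA, stood at 8788, 8472 and 7153 against 3471, 3355 and 3194. NSUN2, an RNA cytosine methyltransferase, stood at 16699.6, 16186 and 15149 against 8149, 7777 and 7966, and the control at 15468, 14989.8 and 14999. RPL22 of the large ribosomal subunit stood at 2174, 1873 and 2018 against 1035, 931 and 1112, with 885, 1133 and 979 in the control, so here the ZC3H7B line was the high group. Of these 8 genes, 7 (all but FAM111B) lie inside chromosome stretches in which neighbouring genes differed together, while none of the 8 abundant genes higher in the ZC3H7A line does. Of the 15 largest differences in each direction, which are not limited by level, 1 of those higher in the ZC3H7A line (RPH3A) and 3 of those higher in the ZC3H7B line (MFAP2, RASAL1 and OAS3) lie inside them.

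Neighbouring genes differed together in 9 such stretches, called blocks here. A block is a run of at least 15 genes of mean 100 or more in which the running median of 21 neighbours was at least 0.3 in size. This definition was chosen after the positions had been looked at, so the blocks are a description without a test. The 9 blocks hold 928 of the genes tested, of which 733 were called (79.0%), 718 of them in the direction of their block. They account for 12.9% of all calls and for 67 of the 466 calls of at least 2-fold. Outside them 4952 of 14309 genes were called (34.6%), 2716 higher in the ZC3H7A line (19.0%) and 2236 higher in the ZC3H7B line (15.6%). The number of genes inside blocks stayed between 780 and 1106 with a running median of 11 or 41 genes, a threshold of 0.2 or 0.4, and each library left out. At a threshold of 0.4, and without ZC3H7A replicate 1 or ZC3H7B replicate 3, 8 of the 9 blocks were found again. DNA copy number was not measured, and its part in the blocks was not tested.

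**Figure D2:**
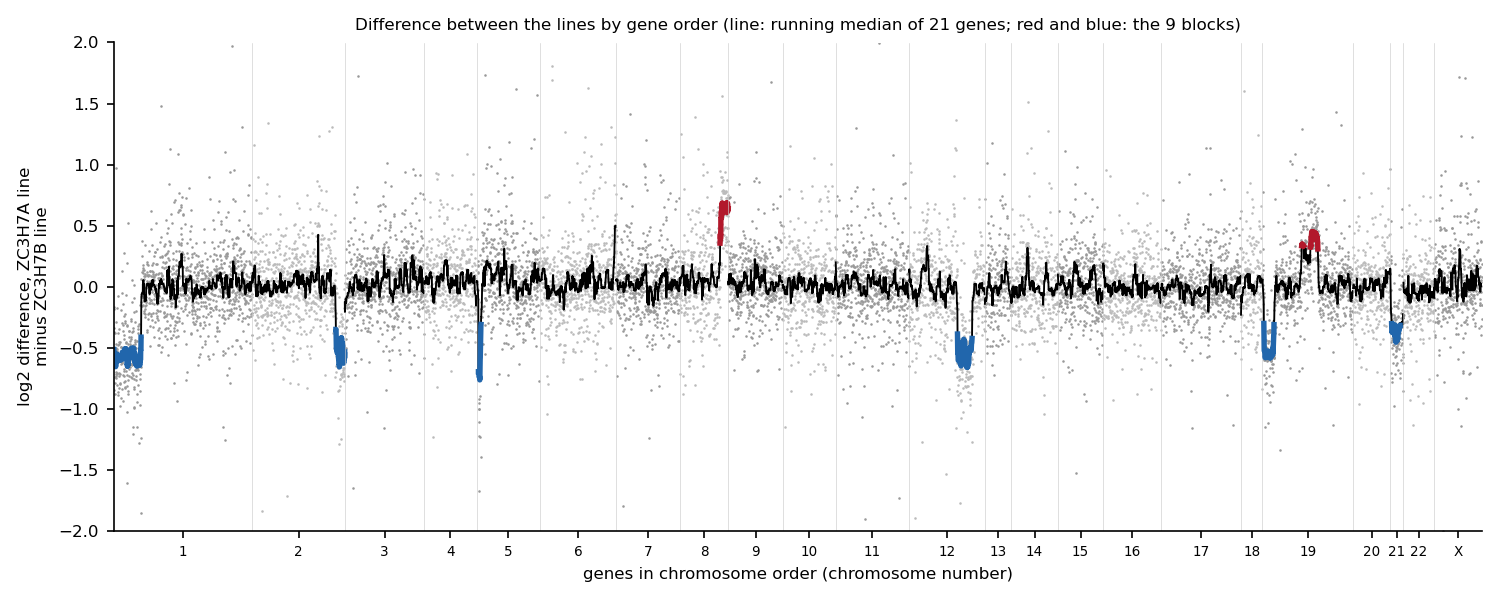
Log2 difference of each gene of mean 100 or more (grey points, ZC3H7A line minus ZC3H7B line) in chromosome order, with the running median of 21 genes as a black line and the 9 blocks in red (higher in the ZC3H7A line) and blue (higher in the ZC3H7B line). The axis ends at -2 and 2, genes beyond it are not drawn, and the running median stays near 0 over most chromosomes and steps away from it in the blocks.

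In 5 blocks the ZC3H7A line was the group that stood apart and was low. The largest covers chromosome 1 from 0.63 to 28.7 Mb, where 216 of 224 genes were lower in the ZC3H7A line with a median log2 difference of -0.58. Against the control its median was -0.49 in the ZC3H7A line and 0.09 in the ZC3H7B line. With a single library of either line in place of the mean of 3, the median ran from -0.595 to -0.559, so each library showed it. ENO1, an enzyme of glycolysis, is in this block and stood at 89963, 87118 and 80449.8 in the ZC3H7A line against 140345, 139953 and 116783 in the ZC3H7B line. On chromosome 2, from 224 to 242 Mb, all 73 genes were lower in the ZC3H7A line (median -0.53). On chromosome 5, from 1.80 to 17.3 Mb, 21 of 22 were lower (median -0.75). On chromosome 12, from 93.5 to 114.7 Mb, 115 of 120 were lower (median -0.55), and on chromosome 21, from 25.9 to 43.8 Mb, 67 of 70 (median -0.37). Chromosome 21 as a whole had a median of -0.36.

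Chromosomes 8 and 19 held the remaining blocks. On chromosome 8, from 130.1 to 145.1 Mb, all 68 genes were higher in the ZC3H7A line, by a median of 0.62, and the median against the control was 0.71 in the ZC3H7A line and 0.10 in the ZC3H7B line. Chromosome 19 as a whole lay above the control in both lines, by a median of 0.49 in the ZC3H7A line and 0.47 in the ZC3H7B line. In its block from 0.98 to 5.72 Mb all 84 genes were lower in the ZC3H7A line (median -0.55). The medians against the control there were 0.0038 in the ZC3H7A line and 0.57 in the ZC3H7B line. The ZC3H7A line was thus farther from its median for the whole chromosome in this block. MIDN (midnolin) lies in it, at 2308, 2264 and 2398 in the ZC3H7B line, 1047, 1013 and 1085 in the ZC3H7A line and 1467, 1492 and 1493 in the control. Further along chromosome 19, from 23.5 to 33.0 Mb, 15 of 18 genes were higher in the ZC3H7A line (median 0.34), and from 36.9 to 40.6 Mb 58 of 62 were (median 0.41). For the stretch from 23.5 to 33.0 Mb the median with a single library ran from 0.227 to 0.335. In these last stretches both lines were above the control, as they were over the whole chromosome. The ZC3H7A line was above it by 0.51 and 0.68. The ZC3H7B line was above it by 0.23 and 0.32, less than its median for the whole chromosome.

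**Figure D3:**
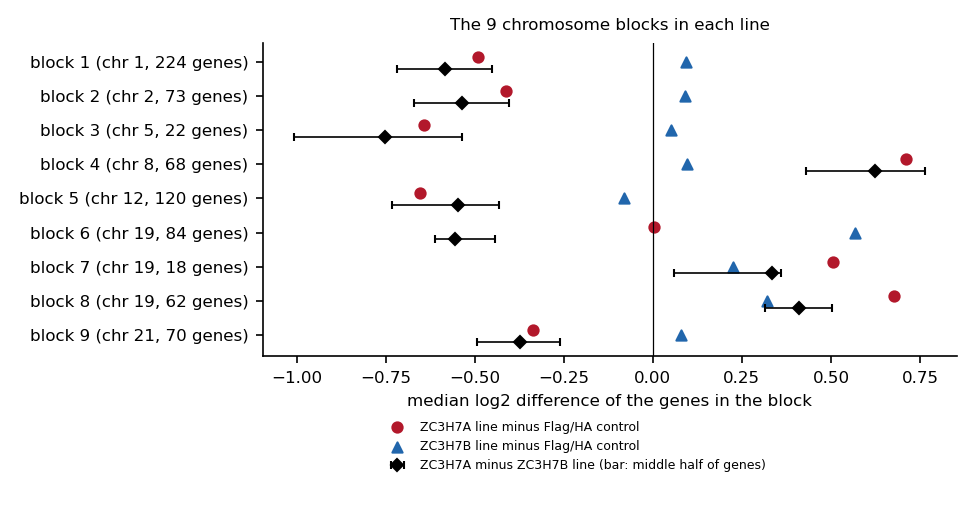
Median log2 difference of the genes in each of the 9 blocks, for the ZC3H7A line minus the Flag/HA control (red circles), the ZC3H7B line minus the control (blue triangles) and the ZC3H7A line minus the ZC3H7B line (black diamonds, with bars for the interquartile range over genes). Blocks 1, 2, 3, 5 and 9 have the red point below 0 and the blue point near 0, block 4 has the red point at 0.71, and in block 6 the blue point is at 0.57 and the red at 0.0038.

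Gene lists by function are given as counts of calls among the members tested, to be read against the shares over all genes of 18.8% in the ZC3H7A direction and 18.5% in the ZC3H7B direction, and counts outside the blocks, ZC3H7A direction first, are added for lists where they differ. A direction is given for a list's median only where TMM, DESeq2 and quantile scaling gave the same sign. All lists were drawn up with earlier results of these data known.

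The repression machinery of 4EHP and GIGYF had 14 genes tested, and limma called 5, each higher in the ZC3H7B line. In the other direction limma, edgeR and DESeq2 called 0, and 1 (FAM195A) had an unadjusted limma p below 0.05. FAM195A, ZFP36 and EDF1 leaned to the ZC3H7A line without a call, at log2 differences of 0.36, 0.24 and 0.09. ZFP36 lies in the last block of chromosome 19. EIF4E2, the cap-binding subunit 4EHP, stood at 3812, 3991 and 3669.8 in the ZC3H7B line against 2102, 1994 and 2288 in the ZC3H7A line, and the control at 3253, 2856 and 3056. Its log2 difference was -0.85 ± 0.0564 (limma adjusted p = 2.47e-11). GIGYF2, the scaffold that joins 4EHP to repressors, stood at 8165, 8315 and 7868 against 5707, 5642 and 5455, and the control at 8735, 7824 and 8315 (log2 difference -0.53 ± 0.0458). Both genes lie in the block of chromosome 2, whose median was -0.53, so GIGYF2 was at the median of its neighbours. Outside the blocks 3 of 11 were called. GIGYF1, the second scaffold, stood at 1630.0, 1592 and 1945 against 1529, 1463 and 1407 (log2 difference -0.23 ± 0.0643), but the call was lost without replicate 3 of the ZC3H7B line (limma adjusted p = 0.0632). ZNF598, which detects collided ribosomes, stood at 1501, 1567 and 1489 against 1314, 1337 and 1302 (limma adjusted p = 0.00424). The AU-rich element binder ZFP36L1 was called at -0.25 ± 0.0855, and lost the call without ZC3H7A replicate 1 or ZC3H7B replicate 2 (limma adjusted p = 0.117 and 0.123). The helicase DDX6, at 11056, 10938 and 11086 and 11168, 11394 and 10888, and the 4E transporter EIF4ENIF1, at 2197, 2026 and 1994 and 2101, 2212 and 2005, overlapped between the lines and were not called.

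Among 32 factors of deadenylation, decapping and mRNA decay, 7 were higher in the ZC3H7A line and 8 in the ZC3H7B line. The decapping enzyme DCP2 stood at 4853, 4604 and 5916 in the ZC3H7A line against 3670.5, 3697 and 4010.1, and the 5′ to 3′ exonuclease XRN1 at 4330.4, 4523 and 4365 against 3328, 3418 and 3360.3 (log2 differences 0.43 ± 0.0666 and 0.39 ± 0.0422). The opposite direction was seen for PAN2, catalytic subunit of a deadenylase, at 1881, 2023 and 1882 against 2549.9, 2769 and 2872, and for BTG1, which recruits CCR4-NOT, at 1026, 1026 and 1101 against 2010.1, 1890.0 and 1797 (log2 difference -0.85 ± 0.057). Without ZC3H7A replicate 1, 5 instead of 8 were higher in the ZC3H7B line. Of 41 other CCCH zinc finger genes 7 were higher in the ZC3H7A line and 10 in the ZC3H7B line, and 6 and 9 of 38 outside the blocks, while edgeR called 11 instead of 7. MBNL3, a splicing regulator, stood at 1575, 1559 and 1965 against 737, 672 and 755, and ZC3H8 at 615, 567 and 618 against 1116, 959 and 1056. ZC3H3 of nuclear mRNA export, 813, 791 and 713 against 406, 475 and 383, lies in the chromosome 8 block.

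Of 17 microRNA factors tested, 4 were higher in the ZC3H7A line and 2 in the ZC3H7B line, and 3 and 2 of 16 outside the blocks. AGO2, the Argonaute that cleaves its targets, stood at 3139, 3142 and 3209.6 in the ZC3H7A line against 1853, 1852 and 2017 in the ZC3H7B line and 1862, 1814 and 1918 in the control (log2 difference 0.73 ± 0.0496, limma adjusted p = 3.47e-11). It lies in the chromosome 8 block, whose median was 0.62. LIN28B, which blocks maturation of let-7, stood at 1942, 1916 and 2155 against 1195, 1198 and 1238 (log2 difference 0.73 ± 0.0562, limma adjusted p = 2.93e-10) and lies in no block. AGO3 and AGO4 were called at 0.20 ± 0.0721 and 0.19 ± 0.0707, and each lost the call without ZC3H7A replicate 3, ZC3H7B replicate 1 or ZC3H7B replicate 2 (limma adjusted p of 0.114 to 0.241 for AGO3 and 0.0874 to 0.210 for AGO4). DROSHA and DGCR8, the nuclear processing pair, were called at -0.13 ± 0.0411 and -0.17 ± 0.0576. DROSHA lost the call without ZC3H7B replicate 1 or 2 (limma adjusted p = 0.0557 and 0.0667), and DGCR8 without ZC3H7A or ZC3H7B replicate 3 (0.0673 and 0.167). DICER1, the cytoplasmic processing enzyme, stood at 7752, 7436 and 8078 and 7683, 7897 and 7699, both above the control at 5248, 5132 and 5277, with a log2 difference of -0.0015 ± 0.0428. The 3 TNRC6 scaffolds, which bind Argonautes, had differences of -0.05, -0.11 and -0.10 for TNRC6A, TNRC6B and TNRC6C, none called. TNRC6B passed under quantile scaling, under array weights, with a replicate block, and without ZC3H7A replicate 3 or ZC3H7B replicate 1 (limma adjusted p = 0.0221, 0.0486, 0.0461, 0.0228 and 0.0375).

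Enzymes that modify the wobble base of tRNAs, which pair with the third base of codons, numbered 22, with 2 higher in the ZC3H7A line and 7 in the ZC3H7B line, and 2 and 5 of 20 outside the blocks. ELP3, catalytic subunit of Elongator, stood at 3676, 3905 and 3666 in the ZC3H7A line against 4800.2, 5014 and 4569 (log2 difference -0.35 ± 0.0466). GTPBP3, which acts in mitochondria, was called at 0.15 ± 0.0519, and lost the call without ZC3H7A replicate 1 or ZC3H7B replicate 2 (limma adjusted p = 0.116 and 0.0839).

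The relation of footprint level to AT3 overlapped between the lines. The slope of the log2 level on AT3 across 13198 genes, per standard deviation of AT3 (16.8 percentage points), was 0.846, 0.884 and 0.894 in the ZC3H7A libraries and 0.878, 0.882 and 0.842 in the ZC3H7B libraries. The 2 sets overlap. Their means differed by 0.0073 (SD 0.0252 and 0.0220, n = 3 libraries each), with a two-sided exact permutation p of 0.50, where the smallest p that 3 against 3 libraries can give is 0.10. The control libraries lay above all of these, at 1.01 in each. The median difference between the lines ran from -0.0170 to 0.0135 over the quintiles of AT3. What did change along AT3 was the share of genes called, at 35.3%, 35.0%, 39.0%, 45.6% and 51.9% from the lowest to the highest quintile. The median level was higher too, from 330 normalized counts in the lowest quintile to 1959 in the highest, and its part in those shares was not tested.

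**Figure D4:**
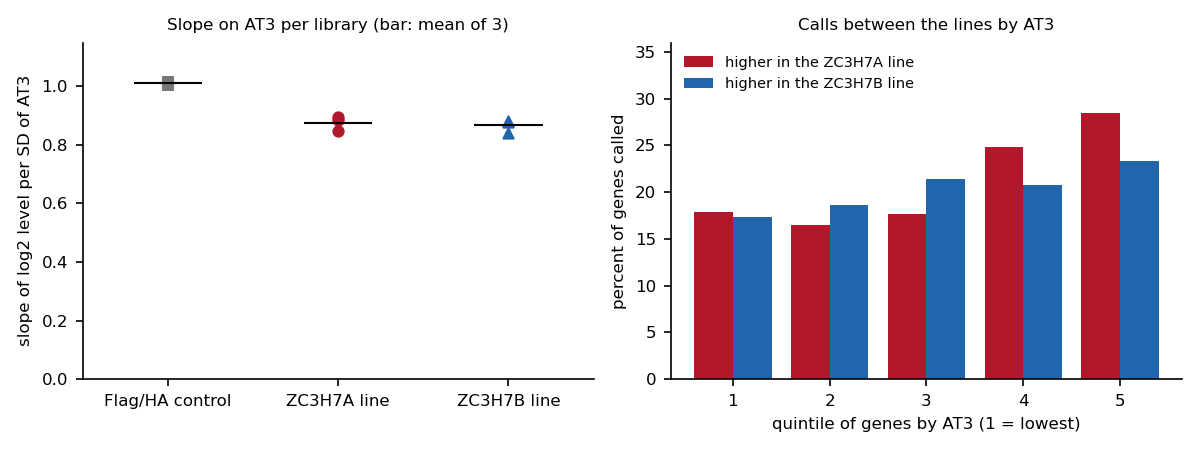
Left, slope of the log2 footprint level per standard deviation of AT3, 1 point per library with the mean of 3 as a bar. Right, percent of genes called higher in the ZC3H7A line (red) and in the ZC3H7B line (blue) in quintiles of genes by AT3. The slopes of the 2 lines overlap between 0.842 and 0.894 below the control at 1.01, and the share called is largest in the highest quintile, with 28.5% in the ZC3H7A direction and 23.4% in the ZC3H7B direction.

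**Figure D5:**
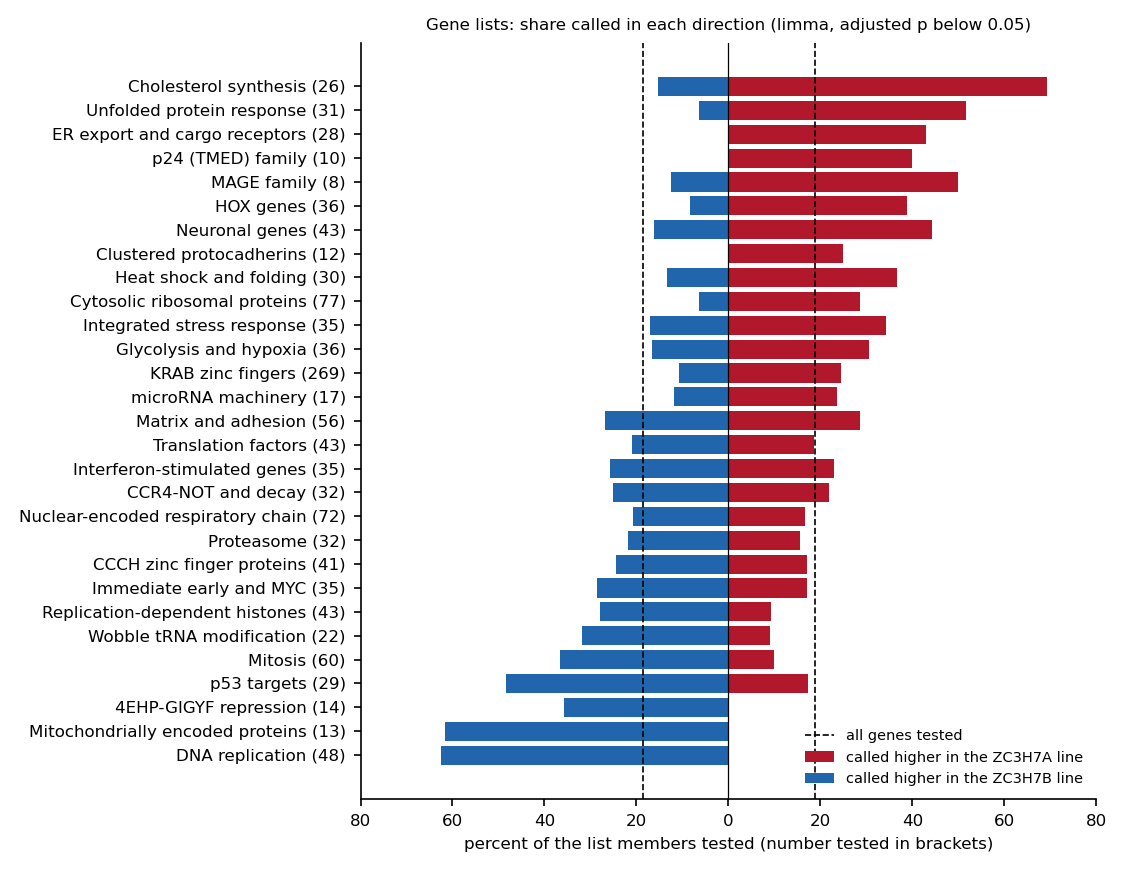
Percent of the members tested of each gene list that were called higher in the ZC3H7A line (red, to the right) and higher in the ZC3H7B line (blue, to the left), with dashed lines at the shares over all genes tested (18.8% and 18.5%). Cholesterol synthesis is at the top with 18 and 4 of 26, and DNA replication at the bottom with 0 and 30 of 48.

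Cholesterol synthesis leaned to the ZC3H7A line, with 18 of 26 genes higher there and 4 higher in the ZC3H7B line (median 0.27), and 18 and 3 of 25 outside the blocks. MSMO1, a sterol demethylating enzyme, stood at 3752, 3968 and 3940.0 in the ZC3H7A line against 2325, 2313 and 2266 in the ZC3H7B line and 4851, 4815 and 4758 in the control (log2 difference 0.76 ± 0.0437, limma adjusted p = 2.35e-12). SQLE, squalene epoxidase, stood at 10656, 10619 and 10284 against 7323, 7386 and 6835, and the control at 11557, 10892 and 10938 (log2 difference 0.55 ± 0.0441). For both genes the ZC3H7B line was the lowest of the 3 groups. The exceptions were MVK, which lies in the chromosome 12 block, PMVK, LSS and SREBF1, and LSS stood at 2029.9, 1812 and 2048 against 2349, 2325 and 2571. Against the control the median of the list was -0.14 in the ZC3H7A line and -0.30 in the ZC3H7B line.

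The endoplasmic reticulum genes of the unfolded protein response followed the same direction, with 16 of 31 higher in the ZC3H7A line and 2 in the ZC3H7B line (median 0.19), and 16 and 1 of 30 outside the blocks. ERO1L, the oxidase that drives disulfide formation, stood at 7035, 7169 and 7863 in the ZC3H7A line against 3480.4, 3552 and 3294 and a control of 9109, 8929 and 8946 (log2 difference 1.09 ± 0.0471, limma adjusted p = 1.24e-14). Its relative ERO1LB stood at 3236, 3348 and 3430.1 against 1895, 2019 and 2053 (log2 difference 0.75 ± 0.0475). SEL1L of protein disposal and the chaperone HSPA5 had log2 differences of 0.48 and 0.27. XBP1 and ATF6, transcription factors of this response, had 0.05 and 0.03 and were not called. HSP90B1, the most abundant member named here, was higher in the ZC3H7B line at 114212, 118443 and 104611 against 86585, 93190.1 and 83686, and lies in the chromosome 12 block. CALR was called at -0.14 ± 0.0536 (limma adjusted p = 0.0491), and that call was lost in 11 alternatives, among them every omission of a control library. The median against the control was -0.22 in the ZC3H7A line and -0.32 in the ZC3H7B line.

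Genes of export from the endoplasmic reticulum were listed after CNIH1 and LMAN1 had been seen, so their counts only describe how far that pattern extends. Of 28 such genes 12 were higher in the ZC3H7A line and 0 in the ZC3H7B line, with a median of 0.11. SEC23A of the COPII coat and ERGIC2 had log2 differences of 0.46 and 0.39, while the coat subunit SEC13 and the cargo receptor SURF4 had 0.04 and 0.15. Of 10 members of the p24 family, cargo adaptors of early secretion, 4 were higher in the ZC3H7A line and 0 in the ZC3H7B line. TMED5 stood at 5769.8, 6124 and 6528 against 2944, 2975 and 2765, with the control at 8736, 8624 and 8807 (log2 difference 1.08 ± 0.0478), and TMED8 at 1722, 1653 and 1952 against 1332, 1294 and 1376. These counts of 0 in the ZC3H7B direction came from limma, edgeR and DESeq2 alike, with 2 export genes and 0 p24 genes at an unadjusted limma p below 0.05, and 1 export gene was called there under quantile scaling, under array weights, and without ZC3H7A replicate 2 or ZC3H7B replicate 3.

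DNA replication leaned to the ZC3H7B line. Of 48 replication genes 30 were higher there, with a median of -0.17. In the ZC3H7A direction limma, edgeR and DESeq2 called 0 of them, as did an unadjusted limma p below 0.05. Outside the blocks 29 of 47 were higher in the ZC3H7B line, since RPA2 alone lies in a block. The count ran from 24 to 36 over the alternatives. ORC5, a subunit of the origin recognition complex, stood at 2119.7, 2456 and 2365 in the ZC3H7A line against 4119, 4396 and 3723 in the ZC3H7B line and 4910.3, 4819 and 4713 in the control (log2 difference -0.82 ± 0.0581, limma adjusted p = 7.18e-11). For ORC5 the ZC3H7A line was the low group. The primase subunits PRIM1 and PRIM2 had log2 differences of -0.52 and -0.38, the helicase subunits MCM4, MCM5 and MCM2 -0.29, -0.23 and -0.21, and the sliding clamp PCNA -0.14. ORC1 and the licensing inhibitor GMNN, at 0.06 and 0.05, were not called. Against the control the median of the list was -0.15 in the ZC3H7A line and 0.06 in the ZC3H7B line.

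Genes of mitosis and targets of p53 had more calls in the same direction. Of 60 mitosis genes 6 were higher in the ZC3H7A line and 22 in the ZC3H7B line (median -0.09). The condensin subunit SMC4 stood at 11980.2, 13403 and 12184 in the ZC3H7A line against 17118, 17701 and 16643, and the kinetochore gene SPC25 at 2061, 2400.3 and 2162 against 3553, 3298 and 3079. KIF23, a motor of cell division, was higher in the ZC3H7A line, at 15946, 16524 and 16240.0 against 13338, 12747 and 12438. Of 29 targets of p53, a protein that is bound by an adenoviral protein in HEK293 cells, 5 were higher in the ZC3H7A line and 14 in the ZC3H7B line (median -0.18), and 5 and 12 of 27 outside the blocks. SESN1, a stress-induced inhibitor of growth signalling, stood at 1217, 1318 and 1330.3 against 1929.5, 1855 and 1841, and the control at 2684, 2784 and 2761. The cell cycle inhibitor CDKN1A and the ubiquitin ligase MDM2 had log2 differences of -0.37 and -0.20. RRM2B and CCNG1 went the other way, at 0.63 ± 0.0655 and 0.44 ± 0.0494.

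Ribosomal protein genes showed small differences. Of 77 tested, 22 were higher in the ZC3H7A line and 5 in the ZC3H7B line, with a median of 0.08. All 5 of the latter lie in blocks, so outside them the counts were 20 and 0 of 70, and edgeR, DESeq2 and an unadjusted limma p below 0.05 also gave 0. Without ZC3H7A replicate 2 the 22 became 12. RPL35 stood at 10996, 12219.7 and 10265 in the ZC3H7A line against 7837, 6964 and 7186 (log2 difference 0.60 ± 0.0548, limma adjusted p = 3.85e-09) and lies in no block. RPL8, at 34466, 33309 and 29724 against 20811, 20058 and 19720.3, lies in the chromosome 8 block, and RPL11, at 25379.7, 25567 and 23293 against 38073, 39288 and 32830.1, in that of chromosome 1. Many ribosomal protein genes have processed pseudogenes, which the authors' counting could have given a share of the reads. Among 43 translation factors 8 and 9 were called in the 2 directions (6 and 7 of 39 outside the blocks). Under TMM scaling and with edgeR 13 instead of 8 were higher in the ZC3H7A line, and without ZC3H7B replicate 2, 5 instead of 9 were higher in the ZC3H7B line. The start codon factor EIF1AX stood at 2532, 2666 and 2387 against 1579.8, 1586 and 1355, and the elongation factor EEF2 at 65818, 66515 and 60636 against 100588, 98880.1 and 95328, the latter in the first block of chromosome 19.

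The 13 proteins encoded by mitochondrial DNA leaned to the ZC3H7B line, with 8 higher there (median -0.24). In the other direction limma, edgeR and DESeq2 called 0, as did an unadjusted limma p below 0.05. MT-ND6 stood at 37385, 36925 and 44777 in the ZC3H7A line against 48004, 56213 and 66229 (log2 difference -0.51 ± 0.0916), and MT-CO1 had a log2 difference of 0.01. DESeq2 called 5 of them, and under quantile scaling 1 was higher in the ZC3H7A line. The 72 nuclear genes of the respiratory chain divided 12 to 15, and 10 to 8 of 63 outside the blocks. NDUFS6 and NDUFA10 of complex I, at log2 differences of -1.01 and -0.71, lie in the blocks of chromosomes 5 and 2, and CYC1 of complex III, at 0.62, in that of chromosome 8. NDUFA5 lies in none and stood at 1772, 1984 and 1753 against 1244, 1136 and 1121.

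Developmental and neuronal genes leaned to the ZC3H7A line. Of 36 HOX genes, which pattern the body axis, 14 were higher there and 3 in the ZC3H7B line (median 0.20), and none of the 36 lies in a block. HOXB4 stood at 394, 525 and 501 in the ZC3H7A line against 205, 179.7 and 264 and a control of 199, 213 and 225 (log2 difference 1.13 ± 0.131, limma adjusted p = 2e-07). HOXB9 stood at 3897, 4292 and 3849 against 2913, 2805 and 2976. The 3 in the other direction, HOXA5, HOXA6 and HOXA7, are neighbours in the HOXA cluster. HOXA5 stood at 1585, 1741 and 1602 against 2266, 2436 and 2554. Of the 3 calls in the ZC3H7B direction, 1 was left without ZC3H7A replicate 1, ZC3H7A replicate 3 or ZC3H7B replicate 1, with DESeq2 and with the filter at 100, and HOXA6 also lost its call without ZC3H7B replicate 3. HOXA4, next to them, was higher in the ZC3H7A line by 0.69.

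Of 43 neuronal genes 19 were higher in the ZC3H7A line and 7 in the ZC3H7B line (median 0.24), and 18 and 7 of 42 outside the blocks. TENM1, a teneurin adhesion receptor, stood at 87.0, 55.9 and 65.2 against 16.7, 10.7 and 8.80, and the control at 1427, 1391 and 1558, far above both lines. The sodium channel gene SCN3A and the microtubule protein MAP2 had log2 differences of 1.70 and 1.28. UCHL1, an abundant deubiquitinase of neurons, went the other way at 28755, 28304 and 27528 against 39289.6, 39313 and 35497, as did SCN2A and SNAP25 at -1.09 and -0.54. Of 12 clustered protocadherins tested, 3 were higher in the ZC3H7A line, and 40 more were below the filter. In the other direction limma, edgeR and DESeq2 called 0, and 1 had an unadjusted limma p below 0.05. PCDHGB1 stood at 46.9, 44.7 and 22.2 against 16.7, 12.1 and 11.7. Leaving out ZC3H7B replicate 1 gave 5 such calls, and leaving out ZC3H7B replicate 3, or array weights, gave 1 in the other direction.

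Zinc finger, histone and MAGE families hold many near copies, which makes their single values less certain. Of 269 KRAB zinc finger genes 66 were higher in the ZC3H7A line and 29 in the ZC3H7B line, and 50 and 23 of 241 outside the blocks. Besides ZNF43, ZNF502 was nearly absent from the ZC3H7B line, at 1.52, 4.02 and 7.33 against 173, 144 and 166 in the ZC3H7A line and 89.9, 117 and 152 in the control. ZNF610 was the reverse, at 4.02, 5.59 and 1.30 in the ZC3H7A line against 35.0, 32.2 and 20.5 in the ZC3H7B line. Of 43 replication-dependent histone genes 4 were higher in the ZC3H7A line and 12 in the ZC3H7B line, with 2 instead of 4 among genes at 10 or more in all 6 libraries. The 4 are of the H2A and H2B classes and include the largest differences, such as HIST1H2BG at 2779.8, 2579 and 2743 against 762, 888 and 678, while HIST1H4A stood at 8589.8, 8309 and 8469.5 against 11104, 10622 and 9801. Of 8 MAGE genes tested, 4 were higher in the ZC3H7A line, among them MAGEE1 at 269, 258 and 209 against 95.8, 73.8 and 55.7. The 1 higher in the ZC3H7B line, MAGED1, lost its call without ZC3H7A replicate 3 or ZC3H7B replicate 2 (limma adjusted p = 0.0670 and 0.0840).

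Adhesion and surface genes differed strongly in both directions. Of 56 matrix and adhesion genes 16 were higher in the ZC3H7A line and 15 in the ZC3H7B line, and 16 and 12 of 53 outside the blocks. PVRL3, which encodes nectin-3, stood at 513, 493 and 499.5 in the ZC3H7A line, 22.8, 18.8 and 26.4 in the ZC3H7B line and 806, 775 and 768 in the control (log2 difference 4.42 ± 0.124, limma adjusted p = 3.75e-18). The integrin ITGAV stood at 5868, 6109.8 and 6136 against 2567, 2524 and 2595, with 9091, 8792 and 8866 in the control. In both genes the ZC3H7B line was the low group, whereas for MFAP2 and CDH3 it was the ZC3H7A line. Of the HEK293 markers, the keratin KRT19 stood at 95.1, 103 and 104 in the ZC3H7A line against 493, 504 and 405 and a control of 644, 623 and 613 (log2 difference -2.19 ± 0.102). KRT8 had the same order, at 368, 319 and 304 against 642, 672 and 571, and GFRA1, a receptor for GDNF, was higher in the ZC3H7A line at 695, 731 and 758 against 429, 419 and 418.

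Of 35 genes of the integrated stress response, 12 were higher in the ZC3H7A line and 6 in the ZC3H7B line, and 11 and 5 of 33 outside the blocks. ALDH1L2, a mitochondrial folate enzyme, stood at 2717, 2515 and 2603 against 1683, 1557 and 1495, which is opposite to the direction of its block on chromosome 12. DDIT4, an inhibitor of mTORC1, stood at 1506, 1443 and 1308 against 1009.6, 998 and 940.2, and SESN2, in the chromosome 1 block, at 945, 935 and 992 against 1674, 1551 and 1508. ATF3 was also higher in the ZC3H7B line and lies in no block, at 680, 639 and 656 against 1038, 983 and 877. Of 35 interferon-stimulated genes 8 and 9 were called in the 2 directions (8 and 6 of 31 outside the blocks). SAMD9 stood at 198, 222 and 211 against 494, 496 and 506, and HERC5 at 2224, 2297 and 2309.7 against 3864, 3855 and 3331. TAP1 went the other way, at 798, 926 and 814 against 599, 630 and 619, as did IFI16 of the same list. Of 30 heat shock and folding genes 11 and 4 were called (10 and 2 of 27 outside the blocks), with the co-chaperone DNAJA2 at 11189, 11578 and 11129 against 9693, 9447 and 8825. Of 36 glycolysis and hypoxia genes 11 and 6 were called (10 and 5 of 34 outside the blocks), and LOX, a collagen crosslinking enzyme, stood at 769.9, 925 and 916 against 371, 405 and 368. ENO2 was higher in the ZC3H7B line and lies in no block, at 2962, 3259.6 and 2942 against 4835, 5331 and 4717.

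Of 35 immediate early and MYC network genes 6 were higher in the ZC3H7A line and 10 in the ZC3H7B line. MYC stood at 5797, 4963 and 5497 in the ZC3H7A line against 3523, 3514 and 3119.8, with 2915, 2762 and 2661 in the control (log2 difference 0.68 ± 0.0578), and JUN at 4862, 5023 and 4235 against 6622, 6606 and 5813, with 8952, 8902 and 8692. The 32 proteasome subunits divided 5 to 7, and 3 to 6 of 29 outside the blocks. Without ZC3H7B replicate 3, 13 instead of 7 were higher in the ZC3H7B line, and 12 under quantile scaling. PSMB1 stood at 23006, 23302 and 22957 against 19789, 18685 and 18126, and PSMD12 at 8669, 9119 and 9249 against 10928, 10726 and 10060.4.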

How the data were processed

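The authors deposited a table of normalized counts, a signal per gene and library, per the labels of its columns. Tools listed in the submitters' processing notes are cutadapt, Bowtie, STAR, HTSeq and DESeq2, and both hg38 and hg19 appear there as builds, with neither versions nor roles. Footprint lengths, strand and the treatment of reads with several positions are not stated. Every value was a whole multiple of a step of its library within 0.001 reads (100% of values), so reads per gene could be recovered; counting intervals (95%) and floors (3 reads) rest on these and cover counting error only.

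The test was limma 3.58.1 (R 4.3.3; lmFit, then eBayes with a trend) on log2(value + 1), with the 9 Flag/HA libraries in 1 fit, the contrast of the ZC3H7A line minus the ZC3H7B line, and Benjamini-Hochberg adjustment over 15237 genes at a threshold of 0.05. On simulated data of 14912 genes for this contrast, the share recovered was 76.6% at 1.5-fold, 88.2% at 2-fold and 100% at 4-fold, and 4.97% of the calls were false. Alternatives were other pseudocounts, filters, scalings and designs, omission of each library, and edgeR 4.0.16 and DESeq2 1.42.0 on the recovered reads.

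Names were matched to GENCODE 29 (35650 names, 1376 through an older symbol), 19075 of them with a coding sequence of at least 30 codons; 28 names turned into dates and 4 duplicated names take part unnamed. The genes compared and the lists were chosen with earlier results of these data known. Genes named are both targets, the 15 largest called differences per direction without overlap and with a mean of 20 or more, the 8 largest per direction with 1000 or more in both lines, up to 2 called members per list and direction by p, and all members of the 4EHP-GIGYF and microRNA lists. A few list members outside this rule were chosen after their values were seen; they are given by their log2 difference alone. A few genes that this rule names are not reported here. Of the lists, 2 (export and p24) were added after seeing the data. Replicate numbers were not used to pair the samples, since the labels give no such pairing. Culture-level independence rests on the labels.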

Additional observations from a re-analysis of the deposited data

How the results depend on the processing

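The number of genes called ran from 5006 to 5606 with a library left out, was 5829 with edgeR, 5359 with DESeq2, 5208 with the 6 libraries alone and 5374 of 33036 without the filter. Calls of at least 2-fold numbered 274 among genes at 10 or more in all 6 libraries and 186 among genes at 100 or more in at least 3, both of which test fewer low genes. Same-numbered libraries of the lines had correlations of 0.0194, 0.162 and 0.219, and different-numbered ones ran from -0.218 to 0.116. The labels do not say that a number marks a shared batch, so the numbers were not taken as pairs. A replicate block gave 6011 calls. All 5685 calls kept their sign under the scalings tried except 2 under quantile scaling, and no scaling moved the median of all genes by more than 0.0205. The share of calls in the ZC3H7A direction was 50.3% in the main fit. It was 55.2% with TMM, 52.7% with DESeq2 size factors, 48.8% with quantile scaling, 55.5% with edgeR and 53.3% with DESeq2. Of 3596 values of the 166 named genes under the alternatives, 3530 kept their direction and side of the threshold. Those that changed sign were called in neither case (log2 differences): DDX6 (0.0047 with TMM, 0.0046 with edgeR), DICER1 (0.0190 with TMM, 0.0092 with DESeq2 size factors, 0.0073 with quantile scaling, 0.0199 with edgeR, 0.0102 with DESeq2) and TARBP2 (-0.0051 with array weights). With a library left out, ZFP36L2 ran from -0.0844 to 0.0361, EIF4ENIF1 from -0.0662 to 0.0126, DICER1 from -0.0314 to 0.0284, TARBP2 from -0.0233 to 0.0542 and ADAR from -0.0526 to 0.000113. Chromosome medians moved by more than their spread over libraries for chromosomes 1 (-0.0535) and 15 (0.0174) with the filter at 100, and, with a library left out, for chromosomes 10 (-0.0142 to 0.0149), 14 (-0.0238 to -0.0069) and 20 (-0.0053 to 0.0155). The cause of these was not tested. Genes below about 10 normalized counts are limited by depth.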
